A study of Mus musculus with 17 samples.

Results

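Glp1r, Nrn1, Nrgn, Npl, Clgn, Rgs8, Gja5, Slc17a6 and Ppp2r2c were 9 of the 27240 genes counted in CD8 T cells sorted from mouse lung tumours. They were chosen from measured values, because reads from them were nearly absent in the WT rim libraries and present in the other groups. Bulk RNA sequencing covered 17 libraries in 4 groups. KO core (n = 6) and KO rim (n = 4) came from PDL1DEC mice, whose endothelial cells lack PD-L1, and WT core (n = 5) and WT rim (n = 2) came from WT mice. Core libraries were enriched for macroscopic nodules and rim libraries for parenchymal nodules. The sort was for CD8 T cells in every group, and since the deletion is in endothelium, reads of the PD-L1 gene in these cells do not check the genotype labels. No source used here gives the Cre driver, the tumour model, the age of the mice or how pure the sort was, and 1 WT core library is labelled a pool. Whether each library is a separate animal is not stated either, and p-values therefore measure only the spread between these libraries, which may be technical. In bulk RNA, fewer cells of a type and less RNA per cell cannot be told apart.

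The 9 genes do not form a pathway, and most are better known outside the immune system. PD-L1 is the ligand of PD-1, an inhibitory receptor of T cells, and CD8 T cells that meet antigen for long inside a tumour take on a state called exhaustion, with high levels of inhibitory receptors. Glp1r encodes the receptor of the gut hormone GLP-1, which signals through cyclic AMP in pancreatic beta cells. Nrn1 encodes neuritin, a small membrane-anchored protein first described in growing neurites and later in regulatory and anergic T cells. Inside the cell, Nrgn encodes neurogranin, a neuronal protein that binds calmodulin when calcium is low. Rgs8 encodes a regulator that speeds the shut-off of G proteins, and Ppp2r2c a regulatory subunit of protein phosphatase 2A found mainly in brain. Npl encodes the lyase that breaks down free sialic acid, and Clgn encodes calmegin, a calnexin-like chaperone of the endoplasmic reticulum in male germ cells. Gja5 encodes connexin 40, a gap junction protein of arterial endothelium and heart, and Slc17a6 encodes VGLUT2, which loads glutamate into synaptic vesicles.

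Totals ran from 21767045 to 32566456 counts per library, so that 1 count was worth 0.0307 to 0.0459 CPM, counts per 1000000 of the library total. In WT rim, 3 counts summed over both libraries corresponded to 0.0665 CPM, which served as the floor for genes at 0. By Xist and Y-linked reads, the F322 and O libraries of KO core and KO rim were male, the WT core pool was mixed and all other libraries, WT rim included, were female. Markers of T cell and CD8 identity, 9 of 9 detected in each group, summed to 5406 to 9057 CPM in KO core, 7388 to 7906 CPM in KO rim, 4701 to 9592 CPM in WT core and 6646 to 6654 CPM in WT rim. Both WT rim sums lay below every KO rim sum and within the ranges of KO core and WT core. Every member passed the filter on low counts, and it did so through the groups where it was present.

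All 9 genes are protein coding, and positions are those of RefSeq on GRCm38. Npl (chr1:153503016-153549714) and Rgs8 (chr1:153652959-153697669) lie 103 kb apart on the same chromosome. Gja5 (chr3:97032402-97053634), Ppp2r2c (chr5:36866846-36955078) and Slc17a6 (chr7:51621830-51671126) are each alone on theirs among the 9. The same holds for Clgn (chr8:83389790-83428552), Nrgn (chr9:37544493-37552745), Nrn1 (chr13:36725622-36734477) and Glp1r (chr17:30901867-30936510). In the GENCODE M21 annotation, exons of Nrn1 overlap those of Fars2 on the opposite strand, exons of Gja5 overlap those of Gpr89, and exons of Rgs8 overlap the antisense gene Gm29529. No source used here says whether the counting used strand, and without strand such reads cannot be told apart. Fars2 averaged 33.4 CPM in KO core, 30.0 CPM in KO rim, 38.8 CPM in WT core and 30.5 CPM in WT rim, and Gpr89 averaged 37.4, 33.8, 41.1 and 28.0 CPM in the same order. Neither partner was near 0 in WT rim, where Gja5 had 1 count in all.

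Upstream sequences are shown for the neighbours Npl and Rgs8, both at 0 counts in WT rim, and for Gja5, which had 1 count there. Each line gives the 250 bases before a RefSeq start site on GRCm38.p6, read 5′ to 3′ on the strand of the gene. Capitals mark the motif matches found in the window.
Npl, chr1:153549715-153549964, minus strand: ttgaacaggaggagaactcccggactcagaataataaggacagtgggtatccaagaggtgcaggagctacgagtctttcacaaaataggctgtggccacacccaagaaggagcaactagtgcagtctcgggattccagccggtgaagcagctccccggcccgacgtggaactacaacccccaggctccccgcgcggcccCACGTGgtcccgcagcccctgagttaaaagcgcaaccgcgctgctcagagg
Rgs8, chr1:153652787-153653036, plus strand: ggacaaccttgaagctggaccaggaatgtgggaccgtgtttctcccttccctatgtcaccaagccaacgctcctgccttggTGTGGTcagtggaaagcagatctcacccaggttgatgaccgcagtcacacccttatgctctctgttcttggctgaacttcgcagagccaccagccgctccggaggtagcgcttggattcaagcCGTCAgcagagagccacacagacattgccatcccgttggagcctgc
Gja5, chr3:97032152-97032401, plus strand: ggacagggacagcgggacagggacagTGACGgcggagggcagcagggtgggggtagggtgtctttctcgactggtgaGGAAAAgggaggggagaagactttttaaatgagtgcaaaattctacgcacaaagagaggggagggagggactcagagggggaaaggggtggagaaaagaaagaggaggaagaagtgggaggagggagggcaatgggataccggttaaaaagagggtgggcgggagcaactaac
The capitals are the E-box CACGTG in Npl, from 51 to 46 bases before the start, the RUNX motif TGTGGT in Rgs8, and in Rgs8 also the cyclic AMP response motif TGACG read on the reverse strand. In Gja5 they are TGACG and the NFAT motif GGAAAA.

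Promoter entries were found for 7 of the 9 genes, 10 promoters in all, with none for Nrn1 and Clgn. In windows from 250 bases before to 50 bases after the start, both strands were searched for 8 motifs. TGACG was in 3 of the 10 member promoters (Gja5, Rgs8 and Slc17a6), against 20.8% of all 32851 promoters. TGTGGT was in 2 of 10, both of Rgs8, against 16.8%. GGAAAA was in 1 of 10 against 23.4%, and CACGTG in 1 of 10 against 7.15%. No member promoter held the AP-1 motif TGANTCA (7.81% of all promoters), the NR4A motif AAGGTCA (4.72%), the TATA box TATAAA (13.6%) or the TCF-1 motif CTTTGA (16%). No motif was shared by more than 3 of the 9 genes, and a match is a description of letters, not of a bound site.

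Among the surface proteins, Glp1r had 12.7 CPM in the lowest, 18.4 CPM in the median and 22.2 CPM in the highest KO core library. The KO rim libraries F15, F322, F86 and O had 24.9, 14.2, 11.4 and 13.7 CPM. WT core libraries F164, H719, H873, H876 and the pool had 8.95, 46.2, 30.6, 3.19 and 10.1 CPM, while WT rim libraries H874 and H877 had 0.130 and 0 CPM. The highest WT core library had 14.5 times the level of the lowest and the highest KO core library 1.75 times, and all of these libraries lay above both WT rim libraries. The 3 counts of Glp1r in WT rim set the ratio of pooled CPM at 262 in KO core over WT rim, with an exact 95% counting interval of 89.7 to 1273. Intervals and floors cover counting error only, since the reads carry no molecular identifiers and copies of 1 molecule count more than once.

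Nrn1 had 26.8, 93.9 and 139 CPM in the lowest, median and highest KO core library. KO rim libraries F15, F322, F86 and O had 80.1, 33.4, 50.5 and 75.4 CPM. WT core libraries F164, H719, H873, H876 and the pool had 86.6, 177, 96.0, 35.7 and 104 CPM, and WT rim libraries H874 and H877 had 4.42 and 5.05 CPM. Neuritin reads were low rather than absent in WT rim, with 213 counts over the libraries. The pooled CPM was 19.2 times that of WT rim in KO core (counting interval 16.7 to 22.04), 12.6 times in KO rim (10.9 to 14.5) and 20.7 times in WT core (18.1 to 23.8).

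Of the signalling proteins inside the cell, Nrgn had 38.2, 48.6 and 69.5 CPM in the lowest, median and highest KO core library. KO rim libraries F15, F322, F86 and O had 25.1, 16.6, 26.8 and 33.7 CPM. WT core libraries F164, H719, H873, H876 and the pool had 36.2, 142, 85.5, 16.6 and 64.9 CPM, and WT rim libraries H874 and H877 had 3.25 and 1.86 CPM. Neurogranin was the other member with clear reads in WT rim, 116 counts, and its WT rim mean was 10% of the mean of the lowest other group, the least extreme of the 9. No KO core library fell within the KO rim range, all 6 lying above it.

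Rgs8 had 1.42, 11.2 and 23.5 CPM in the lowest, median and highest KO core library, and KO rim libraries F15, F322, F86 and O had 6.25, 2.96, 10.3 and 13.1 CPM. WT core split widely, with 1.71, 27.9, 34.9, 0.666 and 17.9 CPM in F164, H719, H873, H876 and the pool. Neither WT rim library held a read of Rgs8. Set against the floor of 3 counts over the group, Rgs8 was at least 187-fold higher in KO core than in WT rim, at least 124-fold higher in KO rim and at least 242-fold higher in WT core. The WT core libraries F164 and H876 lay above WT rim but below the lowest KO rim library.

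Ppp2r2c had 1.86, 6.85 and 25.4 CPM in the lowest, median and highest KO core library. KO rim libraries F15, F322, F86 and O had 11.4, 7.57, 5.18 and 6.07 CPM, and WT core libraries F164, H719, H873, H876 and the pool had 1.33, 10.8, 5.69, 4.52 and 3.80 CPM. WT rim libraries H874 and H877 had 0 and 0.0910 CPM, which is 2 counts in all. It was the only member whose lowest group mean outside WT rim was that of WT core, at 5.24 CPM. Its ratio of pooled CPM in KO core over WT rim was 196, with a counting interval of 54.2 to 1622.

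Of the enzyme and the chaperone, Npl had 1.57, 3.43 and 4.99 CPM in the lowest, median and highest KO core library. KO rim libraries F15, F322, F86 and O had 4.23, 1.35, 1.70 and 6.57 CPM, and WT core libraries had 3.88, 4.54, 5.69, 3.05 and 1.61 CPM in F164, H719, H873, H876 and the pool. Both WT rim libraries were at 0. These values put Npl at least 48.8-fold higher in KO core, at least 51.6-fold higher in KO rim and at least 56.6-fold higher in WT core than the WT rim floor of 3 counts. The O library of KO rim, highest for Npl, also had the highest sum of macrophage and monocyte markers, 7787 CPM (10 of 10 detected), against 1126 to 1791 CPM in WT rim. The sums were 1745 to 5416 CPM in KO core and 1866 to 5851 CPM in WT core. KO rim F322 and F86 had 1136 and 632 CPM, no more than WT rim H877, where Lyz2 gave 1260 of 1791 CPM. Single markers differed. C1qb had 51.9 and 34.8 CPM in F322 and F86, against 28.3 and 15.8 CPM in H874 and H877, and Csf1r 70.2 and 36.5 against 75.6 and 130 CPM. F322 and F86 held 32 and 42 counts of Npl, where both WT rim libraries held none. Over the 15 libraries outside WT rim, the Pearson r of Npl with the macrophage and monocyte sum was 0.554 on the log2 scale. The part of those cells in the Npl reads was not tested.

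Clgn had 5.49, 8.35 and 37.4 CPM in the lowest, median and highest KO core library. KO rim libraries F15, F322, F86 and O had 8.64, 3.59, 8.59 and 5.77 CPM, and WT core libraries F164, H719, H873, H876 and the pool had 8.68, 19.6, 11.2, 8.45 and 4.87 CPM. WT rim libraries H874 and H877 had 0.130 and 0.0910 CPM, 5 counts in all. The ratio of pooled CPM over WT rim was 111 in KO core (counting interval 47.7 to 344), 59.8 in KO rim (25.5 to 185) and 94.7 in WT core (40.5 to 292). The highest value belonged to KO core F86, which was also highest for Ppp2r2c. Markers of male germ cells, where calmegin is best known, summed to 0 to 2.91 CPM in KO core and 1.04 to 1.36 CPM in WT rim. KO core F86, highest for Clgn, had 0.366 CPM of germ cell markers. The part of germ cell RNA in the Clgn reads was not tested.

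Of the channel and the transporter, Gja5 had 1.79, 3.65 and 8.92 CPM in the lowest, median and highest KO core library. KO rim libraries F15, F322, F86 and O had 2.48, 0, 4.78 and 3.24 CPM. WT core libraries F164, H719, H873, H876 and the pool had 26.3, 5.40, 8.84, 8.63 and 9.83 CPM, and WT rim libraries H874 and H877 had 0.0433 and 0 CPM. KO rim F322 held no read of Gja5 and so lay at or below both WT rim libraries, the one overlap with WT rim among the 9 genes. With a single WT rim count the ratio of pooled CPM over WT rim was 210 in KO core, with a counting interval of 37.6 to 8319. Markers of endothelium summed to 225 CPM in WT core F164, the library highest for Gja5, to 70.6 to 205 CPM in KO core and to 127 to 211 CPM in WT rim. Of the arterial markers, Gja4 had 10.1 CPM in WT core F164 and was at 0 in both WT rim libraries. Hey1 had 4.57 CPM in F164 and 0 to 0.303 CPM in WT rim, while Bmx had 0.876 CPM in F164 and 1.90 to 3.82 CPM in WT rim. Sox17 was at 0 in F164 and 0 to 0.682 CPM in WT rim, and the pan-endothelial marker Pecam1 had 110.4 CPM in F164 and 82.9 to 196 CPM in WT rim. Pecam1 alone gave 196 of the summed 211 CPM in WT rim H874 and 82.9 of 127 CPM in H877. Vwf had 45.9 CPM in F164 and 2.29 to 3.96 CPM in WT rim, and Tie1 had 13.5 and 0 to 0.736 CPM. Egfl7 had 9.52 CPM in F164 and 3.46 to 3.59 CPM in WT rim. Kdr, at 13.5 CPM in F164, lay within its WT rim range of 0 to 22.9 CPM. The part of endothelial RNA in the Gja5 reads was not tested.

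Slc17a6 had 7.18, 12.1 and 21.3 CPM in the lowest, median and highest KO core library, and 9.05, 1.86, 2.02 and 8.55 CPM in KO rim libraries F15, F322, F86 and O. WT core libraries F164, H719, H873, H876 and the pool had 17.5, 27.1, 18.6, 7.40 and 39.9 CPM, and WT rim libraries H874 and H877 had 0.649 and 0 CPM. All 15 of its WT rim counts came from H874, so its WT rim level rested on 1 library. The ratio of pooled CPM over WT rim was 39.3 in KO core (counting interval 23.8 to 70.3), 15.8 in KO rim (9.50 to 28.5) and 64.6 in WT core (39.1 to 116). Neuronal and neuroendocrine markers summed to 22.3 to 33.4 CPM in KO core, 13.4 to 31.9 CPM in KO rim, 18.4 to 37.1 CPM in WT core and 14.4 to 22.7 CPM in WT rim. Of 10 markers read, 9 were detected in KO core, 9 in KO rim, 9 in WT core and 8 in WT rim, and single ones went different ways. Map2 was at 3.81 to 20.98 CPM in KO core, 0 to 12.2 CPM in KO rim, 3.02 to 10.1 CPM in WT core and 0 to 0.546 CPM in WT rim, low in WT rim as the members were. Tubb3 was at 1.08 to 9.67 CPM in KO core, 1.61 to 4.26 CPM in KO rim, 0.578 to 2.95 CPM in WT core and 3.38 to 9.01 CPM in WT rim. Rbfox3, a defining gene of mature neurons, was above 0 in 3 of the 17 libraries, Slc17a7 in 4 and Snap25 in 6, each at 0.688 CPM or less. Over the 15 libraries outside WT rim, the Pearson r with the neuronal and neuroendocrine sum was 0.503 for Slc17a6 on the log2 scale. Among the members that r ran from 0.222 for Ppp2r2c to 0.715 for Nrgn. The part of neuronal RNA in the reads of Slc17a6 and the other members was not tested.

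**Figure D1:**
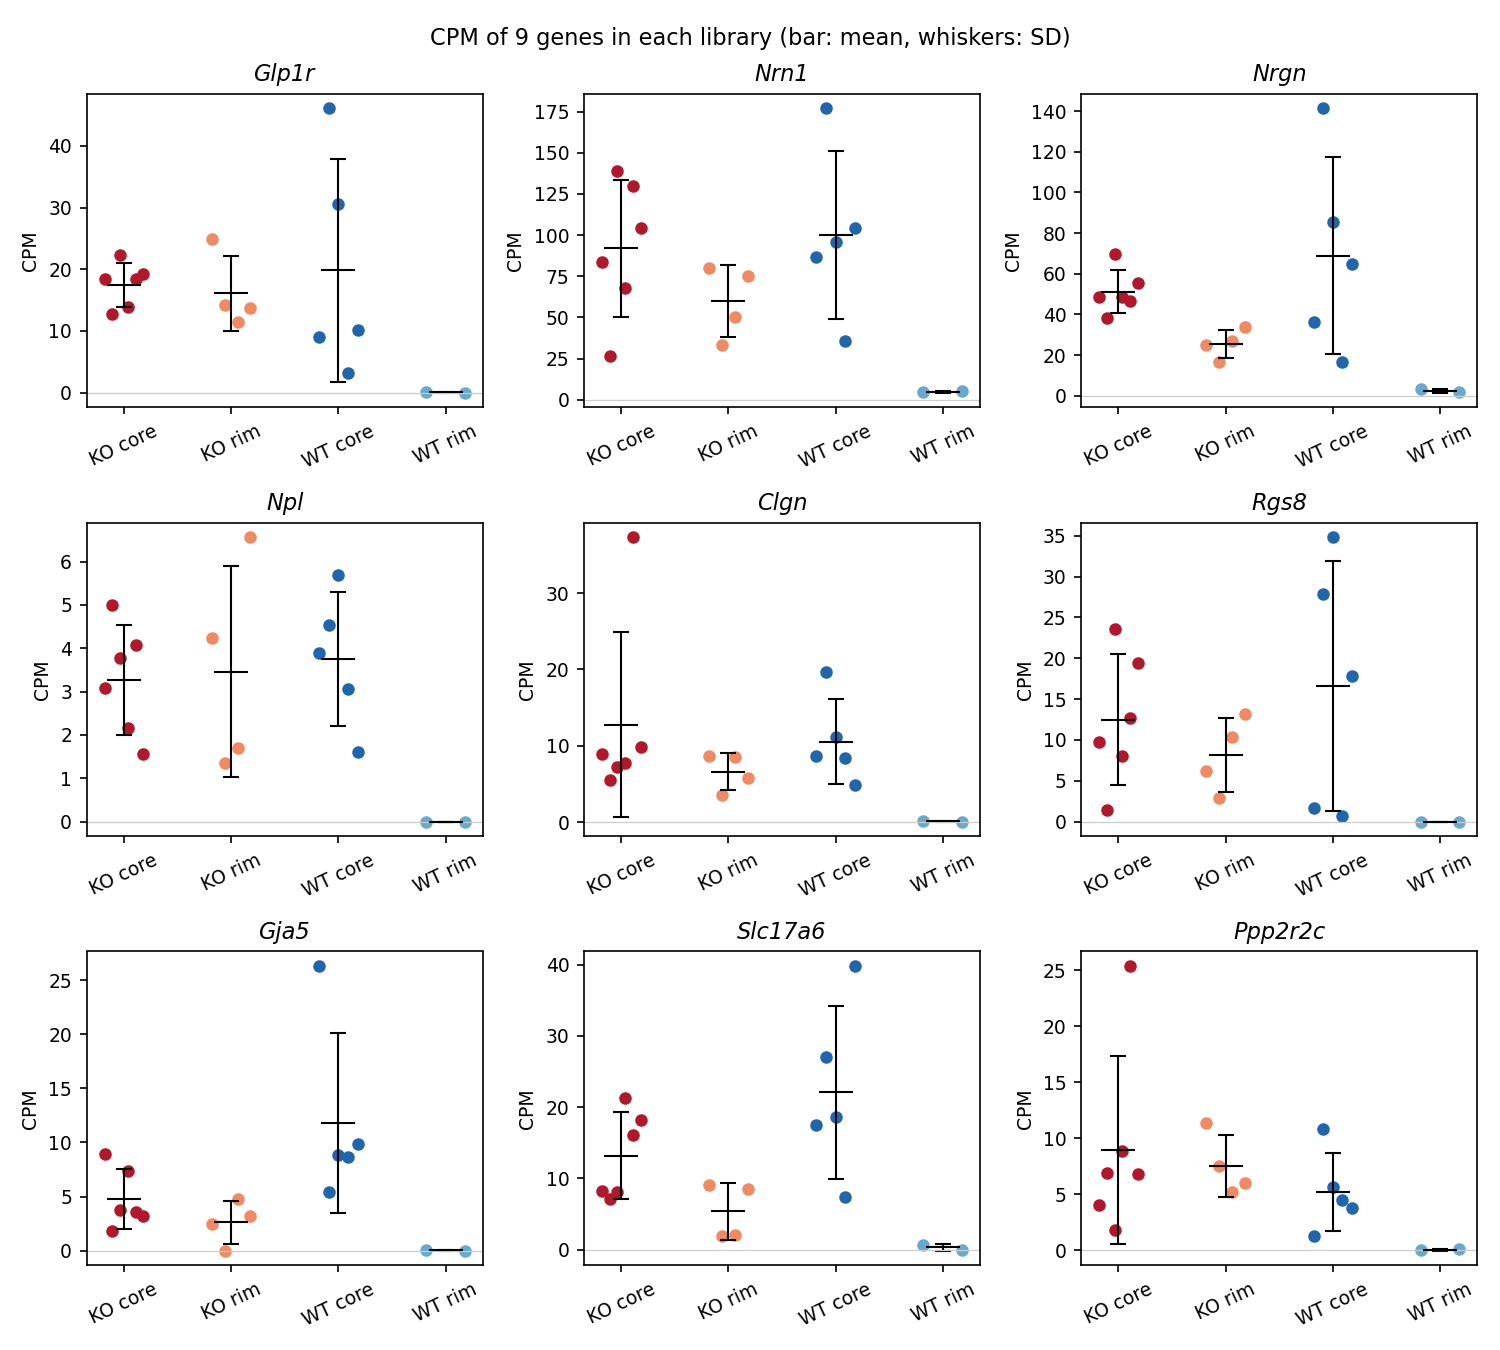
CPM of the 9 genes (vertical axis) in each library, 1 panel per gene, with KO core, KO rim, WT core and WT rim from left to right. Points are libraries, horizontal bars are group means and whiskers are SDs. The WT rim points sit at or near 0 in every panel except those of Nrn1 and Nrgn, where they reach 5.05 and 3.25 CPM.

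Compared per length, as CPM per kilobase of exon (RPKM), neuritin and neurogranin stood well above the others in each group. In KO core Nrn1 averaged 40.9 ± 18.5 RPKM and Nrgn 35.2 ± 7.28 RPKM (SD, n = 6), while the other 7 genes averaged 0.829 to 3.18 RPKM. In WT core Nrgn averaged 47.5 ± 33.3 RPKM and Nrn1 44.5 ± 22.6 RPKM (SD, n = 5), an order that their spread does not separate. In WT rim Nrn1 averaged 2.10 ± 0.199 RPKM and Nrgn 1.76 ± 0.672 RPKM (SD, n = 2), and the other 7 were at 0 to 0.0601 RPKM. The WT rim level of Nrn1 per length was thus above the KO core mean of 4 members, Ppp2r2c, Rgs8, Npl and Gja5, which were 2.02, 1.29, 1.11 and 0.829 RPKM. The KO core SD of Ppp2r2c, 1.89 RPKM, covers its gap to Nrn1 in WT rim.

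The comparisons with WT rim chose the genes, and their values are given without a test. Every KO rim library lay above every WT rim library for 8 of the 9 genes, Gja5 excepted, while 7.55% of the 20137 genes tested showed that separation. Every WT core library lay above every WT rim library for 9 of 9 genes, against 11.2% of all genes, and every KO core library for 9 of 9, against 9.76%. Nothing is read from these counts, which the choice of genes fixed. Of the 12654 genes that averaged 1 CPM or more in each of the other groups, 312 (2.47%) had a WT rim mean under 1 in 4 of the lowest other group, and 131 had one under 1 in 10. The 9 genes are in the first set, and 8 are in the second, Nrgn lying just outside it. By edgeR's quasi-likelihood test with Benjamini-Hochberg adjustment, 777 genes (3.86%) were called in WT core over WT rim, 422 higher and 355 lower, and without WT rim H874 the count was 68. In KO rim over WT rim edgeR called 0 of 20137 genes (0%), with 1480 at an unadjusted p under 0.05, DESeq2 called 264 and limma voom 6.

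The first tested comparison, KO core over WT core, asked whether loss of endothelial PD-L1 altered the genes within core tissue. No member was called, and the KO core and WT core libraries overlapped for each of the 9 genes. Gja5 averaged 4.76 ± 2.75 CPM in KO core (SD, n = 6) and 11.8 ± 8.29 CPM in WT core (SD, n = 5), and its log2 fold change was -1.29 (SE 0.741), with an edgeR adjusted p of 0.888. Slc17a6 averaged 13.2 ± 6.11 CPM in KO core and 22.1 ± 12.1 CPM in WT core, with a log2 fold change of -0.73 (SE 0.585). The largest positive value was that of Ppp2r2c, at 8.99 ± 8.41 CPM in KO core and 5.24 ± 3.51 CPM in WT core, with a log2 difference of 0.79 (SE 0.61), and 0.16 without KO core F86. Glp1r, Nrn1, Nrgn, Npl, Clgn and Rgs8 had log2 fold changes of -0.17, -0.13, -0.42, -0.18, 0.28 and -0.43, with SEs of 0.373 to 0.802. Their adjusted p was 1, as it was for Slc17a6 and Ppp2r2c. The members' median was -0.18 with 2 of 9 positive, beside a median of -0.01 over all genes tested. Across all genes edgeR called 0 of 20137 (0%), with 1244 at an unadjusted p under 0.05, DESeq2 called 8 and limma voom 0, and none of these tools called a member.

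KO core over KO rim compared the sites within mice lacking endothelial PD-L1. No member was called, although 8 of 9 log2 fold changes were positive and their median was 0.59, beside 52.7% positive and a median of 0.03 over all genes tested. The members were chosen with these values known, so neither this direction nor a separation of the groups is independent evidence. Nrgn averaged 51.2 ± 10.6 CPM in KO core (SD, n = 6) and 25.5 ± 7.03 CPM in KO rim (SD, n = 4), which gives a log2 difference of 0.98 (SE 0.413) with an unadjusted p of 0.0296 and an adjusted p of 0.62 by edgeR. It was the 1 member of 9 with every KO core library above every KO rim library, a separation that 0.819% of all genes showed. Slc17a6 averaged 13.2 ± 6.11 CPM in KO core and 5.37 ± 3.97 CPM in KO rim, with a log2 difference of 1.297 (SE 0.656) and an edgeR adjusted p of 0.644. Clgn had 0.92 (SE 0.521), Gja5 0.84 (SE 0.813), Nrn1 0.59 (SE 0.409) and Rgs8 0.57 (SE 0.873) on the log2 scale, with overlapping groups in each case. Without KO core F86 the value of Clgn was 0.23. Ppp2r2c, Glp1r and Npl lay closest to 0, with log2 fold changes of 0.24, 0.10 and -0.08. Across all genes edgeR called 0 of 20137 (0%), with 1600 at an unadjusted p under 0.05, DESeq2 called 35 and limma voom 2, and none of these tools called a member.

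**Figure D2:**
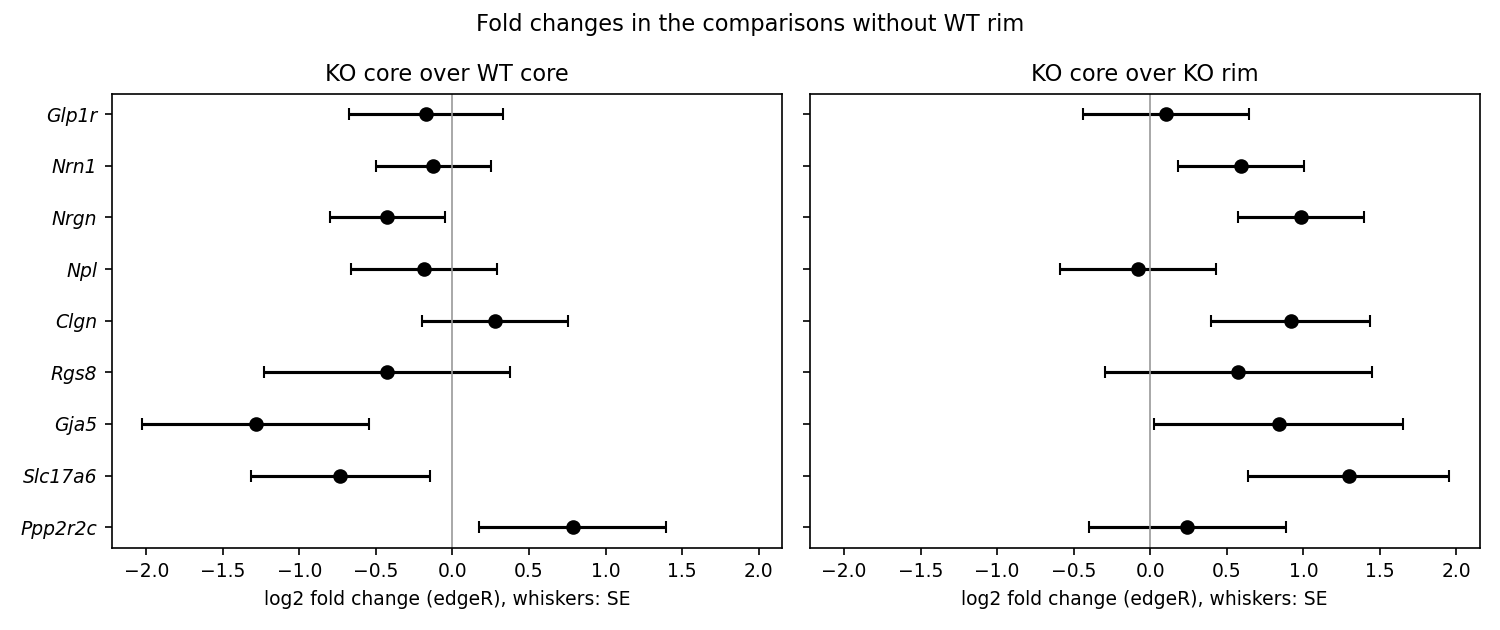
Log2 fold changes of the 9 genes in KO core over WT core and in KO core over KO rim, with whiskers of 1 SE from the edgeR fit. Of the 9 values, 2 are above 0 in the first comparison and 8 in the second, and none passed the test.

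Identifiers F322, F86 and O occur in both KO core and KO rim, though the labels do not say that they mark animals. Of the 27 pairs of values, 23 were higher in core, beside 48.3% of the pairs over all genes tested. The genes Nrn1, Nrgn, Clgn, Rgs8, Slc17a6 and Ppp2r2c were higher in core for all 3 identifiers, as were 13.6% of all genes tested. The members were chosen with these values known, and no test is given. Slc17a6 had 21.3 CPM in core and 1.86 CPM in rim for F322, 16.1 and 2.02 CPM for F86, and 18.3 and 8.55 CPM for O. Gja5 went both ways, with 171 counts in core and 0 in rim for F322, but 3.54 CPM in core and 4.78 CPM in rim for F86. Npl was lower in core for O, at 1.57 CPM in core and 6.57 CPM in rim.

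**Figure D3:**
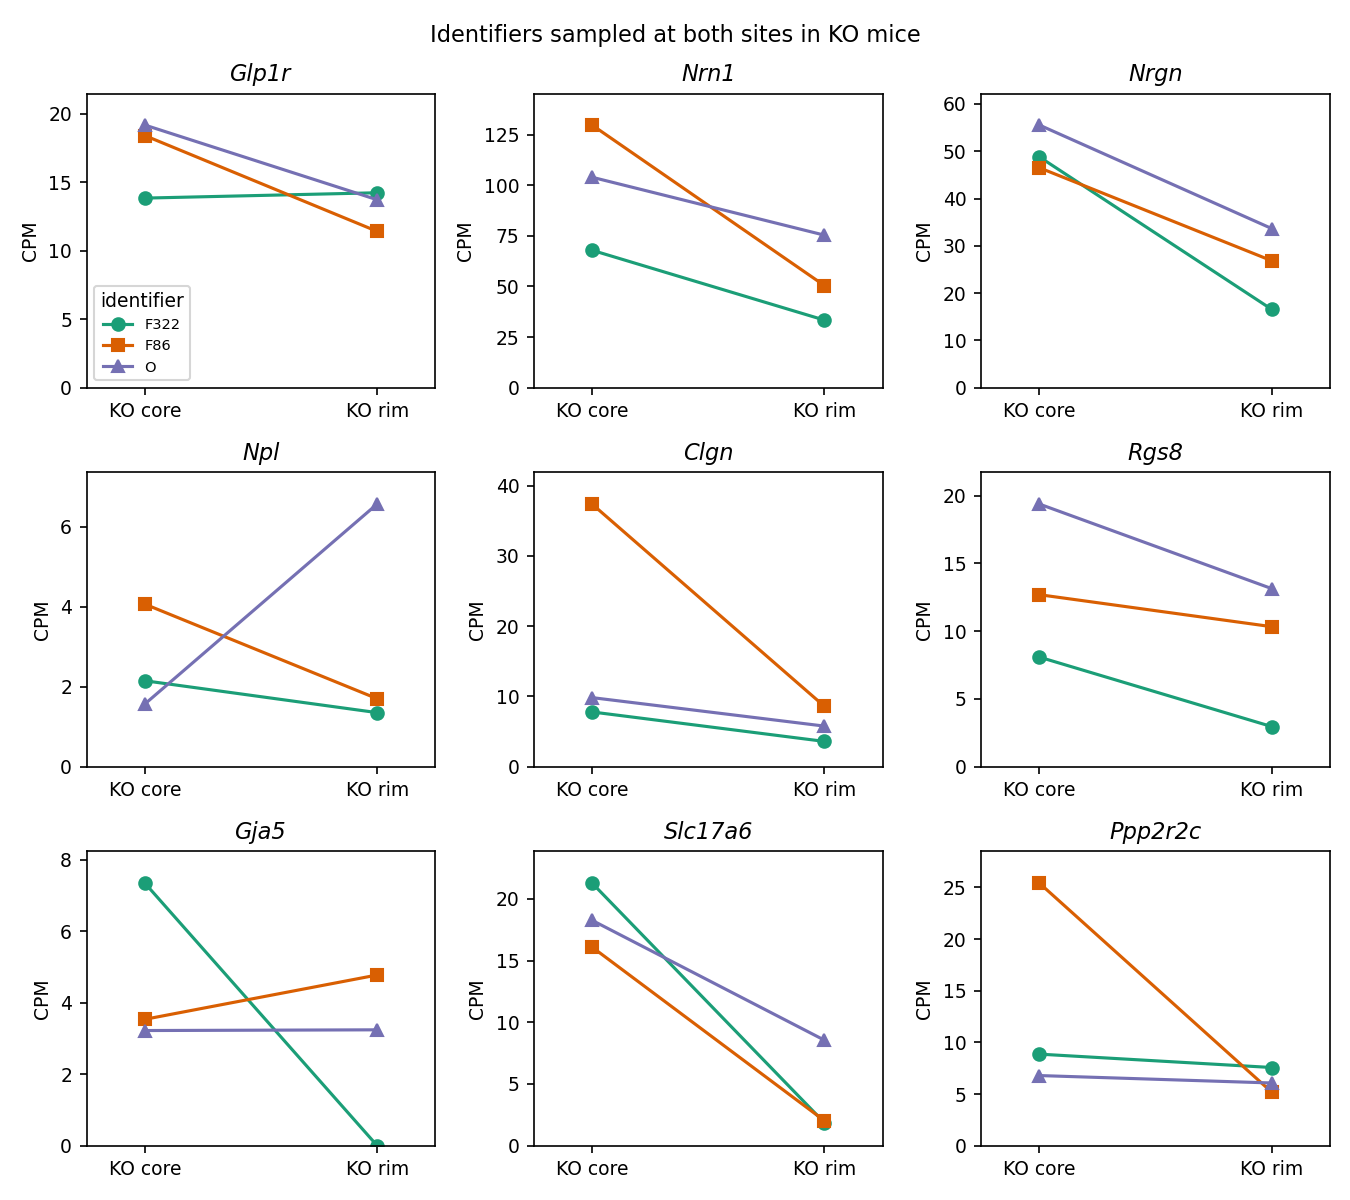
CPM (vertical axis) in KO core (left) and KO rim (right) for the identifiers F322, F86 and O, 1 panel per gene, with a line joining libraries of the same identifier. Lines slope down to the right for all 3 identifiers in 6 of the 9 panels.

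Within the 15 libraries outside WT rim the 9 genes did not move as 1 block. Over their 36 pairs the median Pearson r of log2 CPM was 0.349, 34 were above 0 and 10 were above 0.5. Nrn1 and Rgs8 had the highest r, 0.779, followed by Nrn1 and Nrgn at 0.764 and Nrgn and Rgs8 at 0.747. Gja5 and Ppp2r2c had the lowest, -0.369. The neighbours Npl and Rgs8 had an r of 0.0197. These are descriptions over libraries of KO core, KO rim and WT core, which share groups, tissue makeup and processing.

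By library, WT core H719 was among the 5 highest of all 17 libraries for 8 of the 9 genes and the highest for Glp1r, Nrn1 and Nrgn. WT core H873 was among the 5 highest for 7 genes. At the other end outside WT rim, KO rim F322 ranked 11th or lower for 7 genes, and KO core F318 and WT core H876 did so for 6 each. H719 had the highest sum of T cell and CD8 identity markers, 9592 CPM, and H876 and F318 the lowest, 4701 and 5406 CPM. Over the 15 libraries the r with that sum was 0.788 for Rgs8, 0.724 for Nrn1 and 0.662 for Glp1r, but -0.125 for Gja5 and -0.218 for Npl. The part of T cell content in the members' levels was not tested, and WT rim had 6646 and 6654 CPM of the same markers. With the sum of endothelial markers r was -0.707 for Rgs8 and -0.63 for Glp1r, but -0.0037 for Gja5. Pecam1 gave 83.1 of the summed 95.2 CPM in KO core F319 and 45.4 of 57.3 CPM in WT core H719. In WT core F164 it gave 110 of 225 CPM. In some libraries the endothelial sum thus rested largely on 1 gene. Dendritic cell markers summed to 730 to 2340 CPM in KO core, 1049 to 2155 CPM in KO rim, 741 to 2871 CPM in WT core and 2010 to 3173 CPM in WT rim. Over the 15 libraries the r with the dendritic sum was -0.871 for Nrn1, -0.832 for Rgs8 and -0.78 for Nrgn, but -0.224 for Npl and -0.125 for Ppp2r2c. The part of these other cells in the members' levels was not tested either. Ccr7, which T cells express too, gave 3122 CPM of the dendritic sum in WT rim H874 and 805 CPM in H877. The other dendritic cell markers summed to 51.2 CPM in H874, the lowest of the 17 libraries, and to 1205 CPM in H877, so the WT rim libraries stood apart from each other. Natural killer markers summed to 314 CPM in WT rim H874 and 2269 CPM in H877, of which Gzma, a granzyme gene that CD8 T cells also express, gave 291 and 2190 CPM. Without Gzma the natural killer markers summed to 23.1 and 79.1 CPM in these libraries, against 27.6 to 106.5 CPM in those of the other groups.

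**Figure D4:**
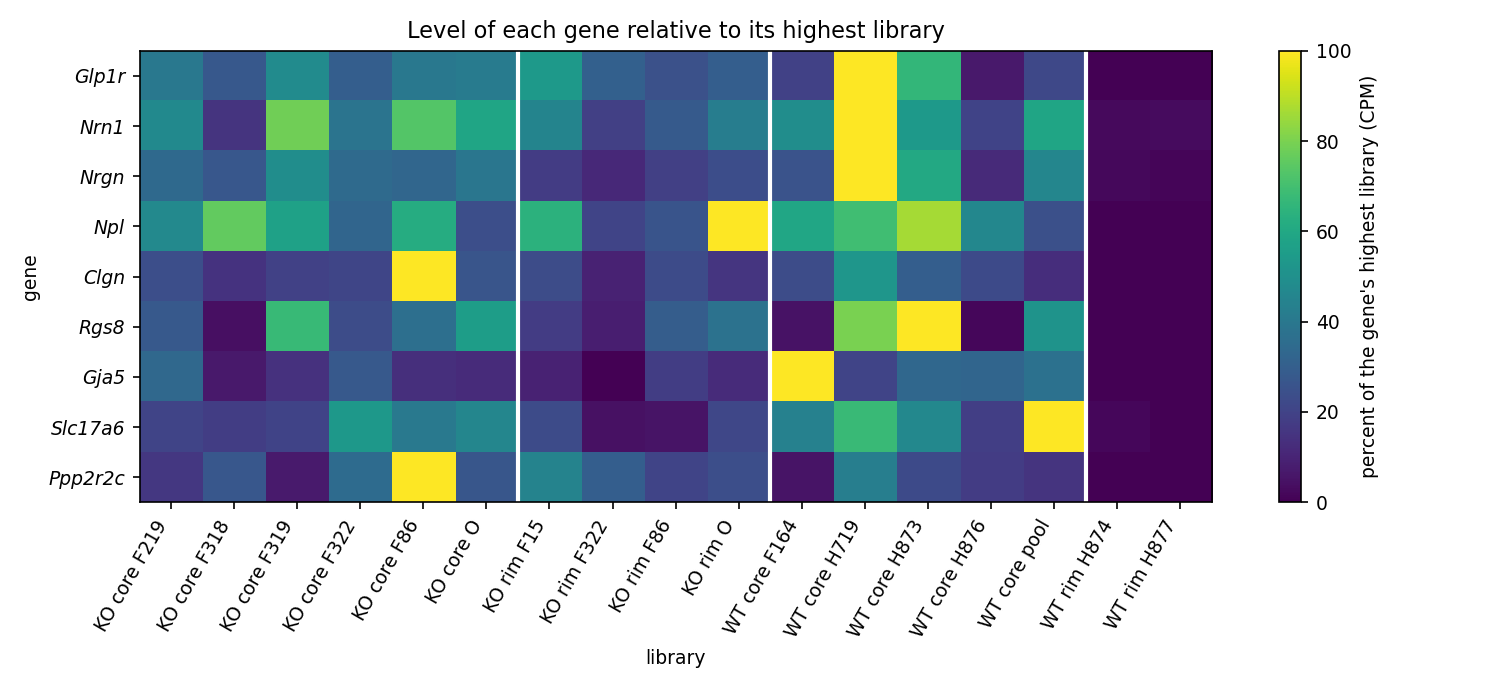
CPM of the 9 genes (rows) in each of the 17 libraries (columns, grouped as KO core, KO rim, WT core and WT rim), coloured as percent of the gene's highest library. Both WT rim columns are dark in all rows, WT core H719 is the brightest column for Glp1r, Nrn1 and Nrgn, and KO rim F322 and WT core H876 are dim in most rows.

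The genes most like the 9 over the 15 libraries were taken from 12364 candidates by Pearson r with the mean of the members' standardised log2 CPM. They were Sapcd2 (r = 0.959), Hmgb3 (0.951), Nek2 (0.936), Gtse1 (0.936), Pimreg (0.931), Cd200r1 (0.93), St14 (0.925), Birc5 (0.922), Incenp (0.919) and Cdk6 (0.914). By Spearman's rho, 4 of these 10 were again among the top 10. Their WT rim means ran from 2.79 to 75.8 CPM. Nek2, a mitotic kinase, averaged 35.0 CPM in KO core, 24.1 in KO rim, 40.8 in WT core and 6.69 in WT rim. Cd200r1, an inhibitory receptor, averaged 114, 71.9, 135 and 13.9 CPM in the same order. Among exhaustion-associated genes Lag3 ranked 13th (r = 0.908), while Pdcd1, which encodes PD-1, had an r of 0.553 and Nr4a1 one of -0.593. For single members the closest genes were Ccr8 for Nrn1 (r = 0.922), Il2rb for Rgs8 (0.931), Kif18b for Slc17a6 (0.929), Hmgb3 for Nrgn (0.918), Slc13a3 for Npl (0.902), Pter for Gja5 (0.899), Nfkbil1 for Glp1r (0.866), Ppp2r2d for Ppp2r2c (0.851) and Ssb for Clgn (0.842).

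Relatives of the members were read from family lists. In the tested comparisons no gene of any family list was called. Of the 5 tested class B hormone receptors related to Glp1r, Vipr2, a receptor of the neuropeptide VIP, had the nearest pattern, at 17.5 CPM in KO core, 7.69 in KO rim, 26.2 in WT core and 0.995 in WT rim. It was not called in WT core over WT rim (edgeR log2 fold change 4.66, SE 1.49, adjusted p = 0.0949). Calcrl, another receptor of the list, averaged 34.1, 48.4, 36.7 and 67.1 CPM in the same order, highest in WT rim. None of 17 cyclic AMP genes was called in any of the 4 comparisons, and Prkar1a, a regulatory subunit of protein kinase A, averaged 1572 CPM in KO core and 1371 CPM in WT rim. Among 17 calmodulin genes 1 was called in WT core over WT rim, where 3.86% of all genes were, so this share is near the background. It was Calm3, at 140 CPM in WT core against 66.9 CPM in WT rim (log2 fold change 1.02, edgeR adjusted p = 0.0384). The call was lost without KO core F318, WT core H873 or WT rim H874, with adjusted p up to 0.41.

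Of 10 tested regulators of G protein signalling, 1 was called in WT core over WT rim, beside 3.86% of all genes. It was Rgs16, with 458 CPM in WT core against 57.4 CPM in WT rim (log2 fold change 2.94, edgeR adjusted p = 0.0105). Rgs1 averaged 803 and 309 CPM and Rgs2 447 and 456 CPM in WT core and WT rim, and neither was called. Among 15 tested chaperones of the endoplasmic reticulum, Canx, which encodes the calnexin that calmegin resembles, rose to 853 CPM in WT core against 522 CPM in WT rim (log2 fold change 0.66, adjusted p = 0.0303), and Dnajb9 fell to 104.8 CPM in WT core against 258 CPM in WT rim (-1.34, adjusted p = 0.0406). The calls of Rgs16 and Canx were lost without either WT rim library, with adjusted p up to 0.145 and 0.289, and that of Dnajb9 in 10 of the 17 fits that left out a library (adjusted p up to 0.346). None of 18 tested sialic acid genes, 9 connexin and pannexin genes, 6 vesicular transporter genes, 14 phosphatase 2A genes or 9 neurite-growth and membrane-anchor genes was called in any of the 4 comparisons. Their most abundant genes had no comparable gap: St8sia4 averaged 190 CPM in WT core and 243 CPM in WT rim, Slc17a9 28.1 and 51.5 CPM, Panx1 14.1 and 15.2 CPM, and Ppp2r5c 530 and 630 CPM.

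Lists that describe the state of T cells were read in the same way. In WT core over WT rim, 7 of 18 exhaustion-associated genes, 5 of 15 T cell receptor response genes and 13 of 15 cell cycle genes were called higher and none lower, beside 2.1% of all genes called higher. Without WT rim H874 the calls kept were 0 of 7, 2 of 5 and 1 of 13, and without WT rim H877 they were 4, 4 and 10. Without WT core H719 or H873, 4 of the 7 exhaustion-associated calls were kept. Lag3 averaged 117 CPM in WT core and 17.02 CPM in WT rim, Tnfrsf9 403 and 31.9 CPM, and Top2a 369 and 56.1 CPM. In KO core over WT core and in KO core over KO rim none of these genes was called by edgeR. These lists were chosen with earlier results of these libraries known and are no independent evidence of a direction.

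Neighbouring genes were looked at after the values of Npl and Rgs8 had been seen. Of 67 tested genes within 250 kb of a member, 3 were called higher and 0 lower in WT core over WT rim by edgeR, near the 3.86% called over all genes, and nothing is read from the count. C230024C17Rik, a long noncoding RNA next to Rgs8, averaged 2.34 CPM in KO core, 1.61 in KO rim, 3.71 in WT core and 0.0899 in WT rim (log2 fold change 5.25 in WT core over WT rim, adjusted p = 0.00743). Rgs16, the regulator of G protein signalling named above, lies 42684 bases beyond Rgs8. Dhx9, an RNA helicase gene 15328 bases from Npl, averaged 65.8, 63.2, 70.0 and 66.8 CPM in the 4 groups in that order. The third called neighbour was Cd160, which encodes an exhaustion-associated receptor and lies 203051 bases from Gja5, at 249 CPM in WT core and 60.5 CPM in WT rim (log2 fold change 1.99, edgeR adjusted p = 0.00563). Without WT rim H874 the adjusted p was 0.136 for C230024C17Rik and 0.0782 for Cd160.

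**Figure D5:**
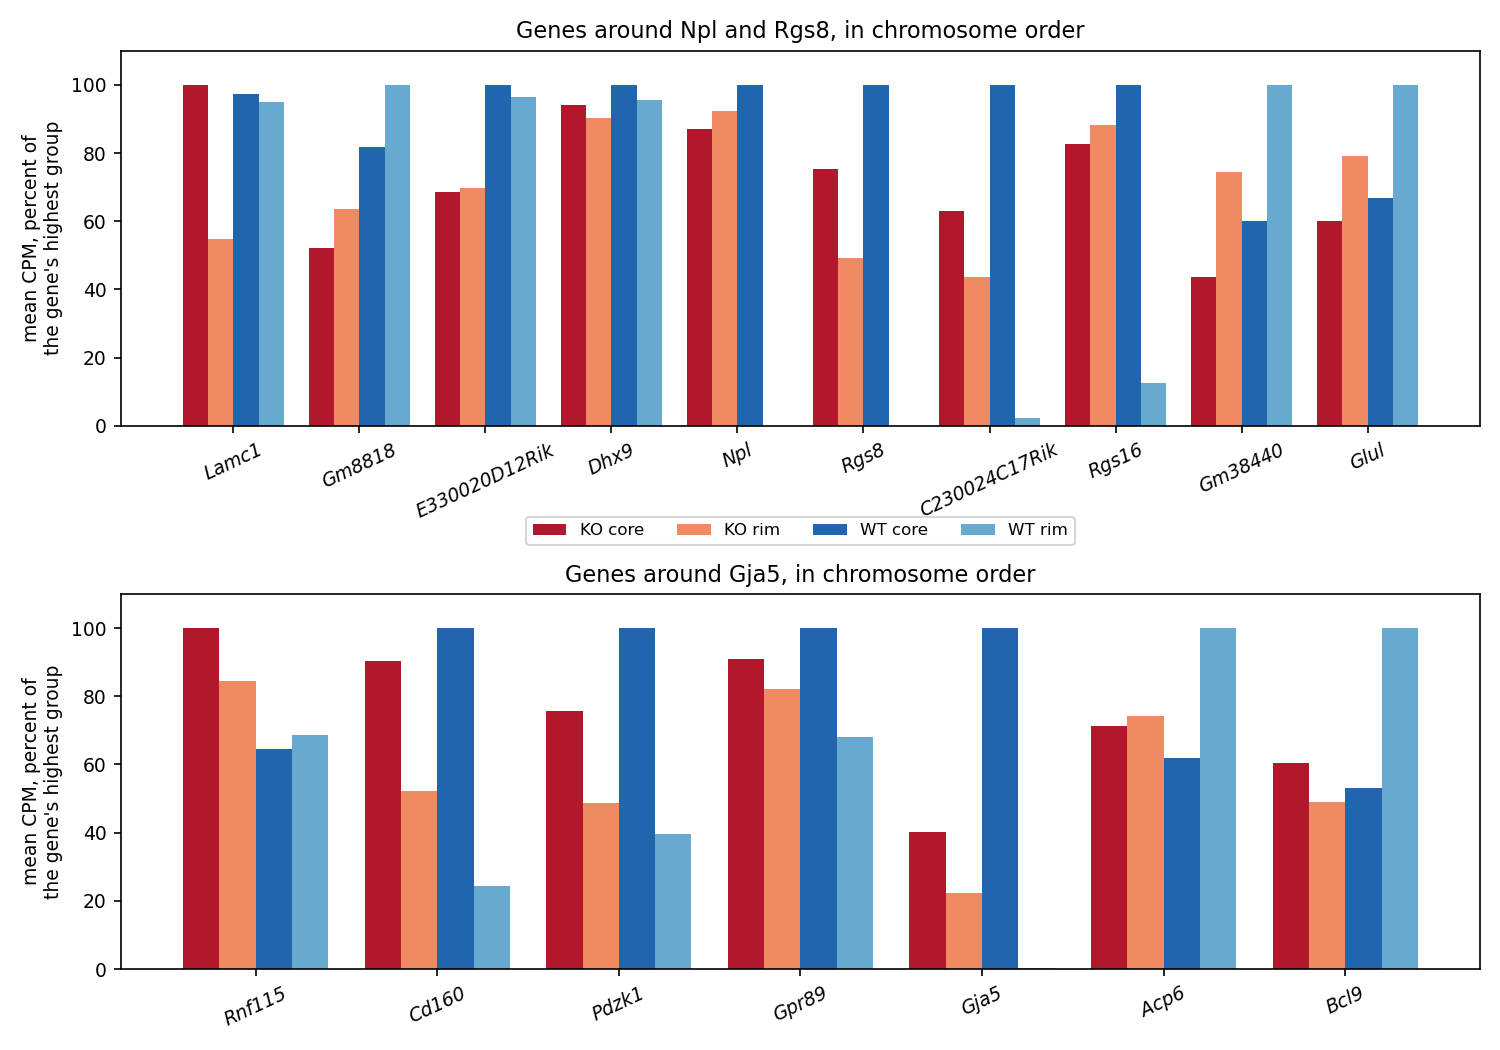
Mean CPM in KO core, KO rim, WT core and WT rim (bars, left to right), as percent of the gene's highest group, for selected genes around Npl and Rgs8 (upper panel) and around Gja5 (lower panel), in chromosome order. Npl, Rgs8, C230024C17Rik, Rgs16 and Gja5 have WT rim bars at or near 0 or far below the other groups, while Dhx9 and Gpr89 do not.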

How the data were processed

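The deposited values are raw, unnormalized read counts by gene symbol, in 1 table for the 17 libraries. Per the submitters' processing notes, cutadapt 3.2, Bowtie2 2.4.5, HISAT2, Subread 2.0.0, featureCounts and the builds GRCm38 and mm10 were used. No source used here gives their order, settings or use of strand. Per the labels' protocols, libraries were made with the TruSeq RNA Library Prep Kit.

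CPM is the count per 1000000 of the library total. RPKM divides CPM by the GENCODE M21 exon length. Counts were fitted in R 4.3.3 with edgeR 4.0.16: filterByExpr kept 20137 of 27240 genes, libraries were scaled by TMM, and a robust quasi-likelihood fit covered all 17 libraries and 4 groups. P-values are two-sided and Benjamini-Hochberg adjusted over all 20137 genes, with a threshold of 0.05. The SE is the log2 fold change divided by the square root of F. DESeq2 1.42.0 and limma 3.58.1 (voom) were alternatives. The fit was tested on simulated data.

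The members, lists and tests were chosen with earlier results of these data known. Beside the 9 members, the rule named the 10 genes most correlated with their mean (prior count 2), the 2 most correlated with each member (the closest is printed), and family genes that were called or abundant. Log2 CPM used a prior count of 2. Other alternatives were another scaling, no filter, only the groups compared, female libraries only, an identifier block, and each library left out. Some genes of the lists and neighbourhoods are not reported here.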

Additional observations from a re-analysis of the deposited data

Results flagged for a closer look

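In 27 sets of values (9 genes in the 3 groups of 4 to 6 libraries), 3 had a library whose gap to the next exceeded Dixon's 95% critical value. Chance does so in about 1 in 20 sets of independent, normally distributed values. The sets reuse the same libraries and CPM was not checked for normality, so that rate need not hold here. Clgn in KO core F86 had 37.4 CPM, against 5.49 to 9.83 CPM in the other KO core libraries. Ppp2r2c in the same library had 25.4 CPM, against 1.86 to 8.86 CPM in the others. Gja5 in WT core F164 had 26.3 CPM, against 5.40 to 9.83 CPM in the other WT core libraries, and that library also had the highest sum of endothelial markers, 225 CPM. The cause of these values was not tested.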

How the results depend on the processing

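No alternative called a member in KO core over WT core or KO core over KO rim. With DESeq2, 8 genes were called in KO core over WT core, 35 in KO core over KO rim, 264 in KO rim over WT rim and 1907 in WT core over WT rim. With limma voom and quality weights the last 3 counts were 2, 6 and 139. Without the filter 2 genes were called in KO rim over WT rim. In WT core over WT rim 313 were called with female libraries only and 91 with only the groups compared. Leaving out each library gave 0 to 26 calls in KO rim over WT rim (26 without KO rim F322, 23 without WT rim H877) and 68 to 851 in WT core over WT rim (68 without WT rim H874).

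The identifiers F322, F86 and O gave low correlations of deviations between core and rim, 0.0623, 0.0396 and 0.074. Each core library correlated best with its own identifier, and F322 and O were male and F86 female at both sites. No cut was set for these correlations, and they do not settle whether the libraries are paired. With the identifiers as a replicate block, edgeR called 0 genes (710 at an unadjusted p under 0.05) and limma voom with duplicateCorrelation 2. Under that voom block Npl was at 0.0708 and Ppp2r2c at -0.13 on the log2 scale.

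Signs of small differences changed. In KO core over WT core voom gave 0.30 for Glp1r and 0.13 for Rgs8. In KO core over KO rim voom gave -0.0235 for Glp1r and -0.23 for Ppp2r2c, and female libraries only gave -0.0559 for Glp1r and 0.40 for Npl. Leaving out each library gave, in KO core over WT core, -0.46 to 0.43 for Glp1r, -0.35 to 0.20 for Nrn1, -0.68 to 0.0294 for Nrgn, -0.39 to 0.00361 for Npl, -0.40 to 0.64 for Clgn and -0.75 to 0.0338 for Rgs8. In KO core over KO rim it gave -0.0237 to 0.40 for Glp1r, -0.35 to 0.41 for Npl and -0.40 to 0.51 for Ppp2r2c. Other values moved by more than 1.5 times with no change of sign or call. In KO core over KO rim Gja5 was at 2.10 by voom with and without the block, and under the edgeR block Slc17a6 was at 2.52 and Ppp2r2c at 0.85. Without KO core F86, Ppp2r2c was at 0.16 in KO core over WT core and Clgn at 0.23 in KO core over KO rim. The cause was not tested. WT rim rests on 2 libraries, and its 0 to 15 counts for 7 of the genes limit every ratio over it.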

Other observations

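Among the 131 genes with a WT rim mean under 1 in 10 of the lowest other group, those with the highest levels outside the 9 members were Spp1, Hspa1a and Arg1, named after their values were seen. Spp1, which encodes osteopontin, averaged 218.7 CPM in KO core, 83.1 in KO rim, 327 in WT core and 4.97 in WT rim. Hspa1a, a heat shock protein gene, averaged 84.2, 75.2, 119 and 7.39 CPM in the same order, and Arg1, which encodes arginase 1, averaged 156, 25.9, 117 and 1.10 CPM. Coch came 4th, at 28.95, 26.3, 22.3 and 1.99 CPM. Ccl1, a chemokine gene whose product binds CCR8, averaged 42.0 CPM in KO core, 20.2 in KO rim, 74.4 in WT core and 1.40 in WT rim. Klrh1, a receptor gene of the killer cell lectin-like family, averaged 39.9, 19.5, 38.7 and 1.20 CPM in the same order. Next came Gbp2b, C4b, Mrc2, Stab1, Gm43305 and Ccl24, with WT rim means of 0.114, 1.08, 0.546, 1.04, 0.457 and 0.130 CPM.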
